A study of Sinopodophyllum hexandrum with 2 samples.

Results

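Entries of the plant microRNA families miR3627, miR4376, miR5225 and miR3267 were examined in 2 lists of conserved miRNAs from Podophyllum hexandrum (Sinopodophyllum hexandrum), an understorey herb grown for the lignan podophyllotoxin. An entry was taken as a member where its name held miR followed by one of these 4 numbers, ending there, at a letter or at a hyphen. This gave 9 entries with 9 distinct sequences out of 181 names and 122 distinct sequences in either list. The treated list held 5 of them among its 107 entries, and the control list held 8 among its 155 entries. The lists came from 1 treated and 1 control library of small RNAs from mature leaf, and the labels do not say what the treatment was. They hold names and sequences and no abundance, so the depth behind an entry is unknown, no level or fold can be given, and with 1 library per group there is no replicate check. The table of predicted miRNA loci, which does hold read counts, had none of these names among its 117 entries.

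Plant miRNAs are cut as a duplex from a hairpin precursor by a Dicer-like enzyme. One strand guides an Argonaute protein to messenger RNAs that it pairs with over most of its length, and the other strand is usually degraded. In tomato, miR4376 is known to target the transcript of ACA10, a calcium pump of the autoinhibited Ca2+-ATPase type. miR3627, miR4376 and miR5225 are known to be related by sequence, and have been described as relatives of miR390, an old land plant miRNA that directs the processing of TAS3 RNAs into small interfering RNAs. Separately from miR390, plant miRNAs of 22 nt are known as triggers of secondary small interfering RNAs. No target is stated here for miR3267.

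Sequences of 8 of the 9 entries are shown first because the lists differ in which of them they hold. The capitals mark bases 2 to 8, the seed, and all are written 5′ to 3′. The species prefixes stand for peach (ppe), black cottonwood poplar (ptc), potato (stu), soybean (gma), barrel medic (mtr) and the cotton relative Gossypium raimondii (gra), and the suffixes 5p and 3p for the arm of the hairpin.
ppe-miR3627-5p: uCGCAGGAgagauggcacuguc
stu-miR3627-5p: uCGCAGGAgagauggcacuuag
ptc-miR3627b: uGUCGCAGgagagauggcgcua
mtr-miR5225a: uCAGUCGCaggagagaugacac
mtr-miR5225b: uCGCAGGAgagaugacaccuuc
gra-miR3267: uCUGUCGCaggggagauggcug
ppe-miR3627-3p: uGGUGUCAucccuccugugacc
gma-miR4376a-3p: aGCAUCAUaucuccugcauag

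Because the names carry prefixes of other species, these may be the sequences of reference entries, and whether reads of Podophyllum were identical to them is unknown. The 9 entries bore 6 species prefixes out of 42 in the lists, and none of the 9 sequences stood under a second name. Several of them are alike enough that reads might have been assigned to more than 1 of them, depending on a matching rule that the labels do not give.

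All 4 families were in both lists, as were 18 of the other 43 families. These are only 4 families, chosen with earlier results of these data known, so no trait of theirs is read from this count. Of the 9 sequences, 4 were in both lists, 1 was in the treated list only and 4 were in the control list only. The 4 in both were ppe-miR3627-5p, gma-miR4376-5p, mtr-miR5225a and gra-miR3267, so that each family had exactly 1 sequence in both. The recurring sequences made up 80% of the treated entries and 50% of the control entries of these families. Among all other listed sequences, 46 recurred, which is 70.8% of 65 in the treated list and 48.9% of 94 in the control list. Listed sequences are not independent samples, and no test of these shares was made.

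miR3627 had 2 sequences in the treated list and 3 in the control list, with 1 in common. The potato entry stu-miR3627-5p was in the treated list only, and the poplar entry ptc-miR3627b and the peach strand ppe-miR3627-3p were in the control list only. miR4376 and miR5225 each had 1 sequence in the treated list and 2 in the control list, where gma-miR4376a-3p and mtr-miR5225b were added. miR3267 had the same single sequence in both. The treated list held 0 entries with the poplar prefix and the control list 4, so ptc-miR3627b was not the only entry of that species outside the treated list. The potato prefix stood on 5 treated and 8 control entries, although stu-miR3627-5p was in the treated list only. Whether the prefix counts account for either entry was not tested.

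**Figure D1:**
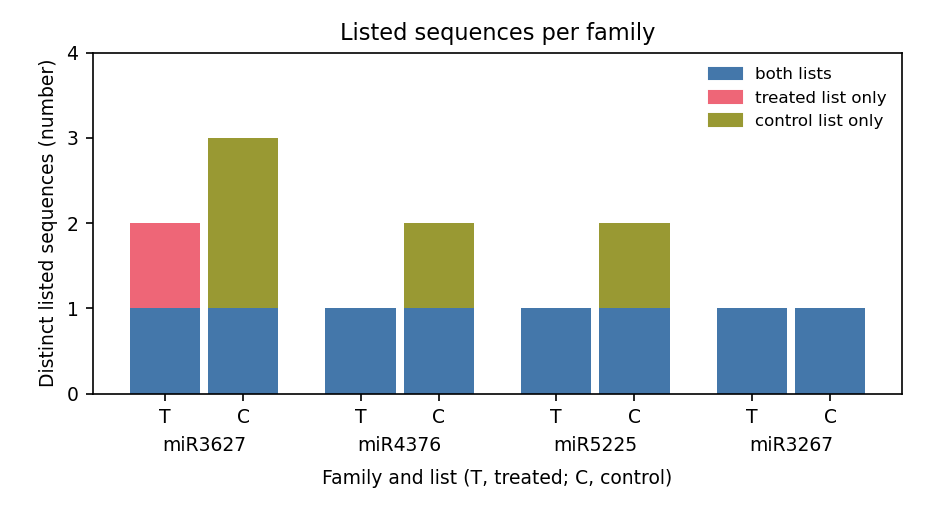
Number of distinct listed sequences (vertical axis) for each family in the treated list (T) and the control list (C), with sequences in both lists in blue and those in 1 list in red (treated) or olive (control). Each family has 1 sequence in both lists, and miR3627 is the family with a sequence in the treated list only.

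Of the 9 sequences, 7 shared a stretch of 13 bases, CGCAGGNGAGAUG, where N is the place at which they were not all alike. These were the 3 sequences of the 5p arm and the 4 whose names give no arm. In 6 of the 7 the stretch read CGCAGGAGAGAUG, and gra-miR3267 was the one that differed, at the place of N. The stretch was found by aligning these sequences and is 13 bases long. Its presence in them, and its absence from other listed sequences, are therefore descriptions. It was in 7 of all 122 listed sequences (5.74%), and in none of the 113 sequences of other families on either strand. All 5 treated entries held it, and 6 of the 8 control entries did.

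Of these 7 sequences, 6 are repeated with the shared stretch in capitals, because its place differed between entries with the same family number.
mtr-miR5225b: uCGCAGGAGAGAUGacaccuuc
ppe-miR3627-5p: uCGCAGGAGAGAUGgcacuguc
stu-miR3627-5p: uCGCAGGAGAGAUGgcacuuag
ptc-miR3627b: uguCGCAGGAGAGAUGgcgcua
mtr-miR5225a: ucaguCGCAGGAGAGAUGacac
gra-miR3267: ucuguCGCAGGGGAGAUGgcug

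The stretch began at base 2 in mtr-miR5225b, ppe-miR3627-5p and stu-miR3627-5p, at base 3 in gma-miR4376-5p, at base 4 in ptc-miR3627b and at base 6 in mtr-miR5225a and gra-miR3267. All 7 sequences began with U and were of 22 nt, so a later start of the stretch goes with fewer bases after it. The treated list held starts at bases 2, 3 and 6, and the control list held these and the start at base 4. In the treated list the start at base 2 was that of 2 miR3627 entries, and in the control list that of 1 miR3627 and 1 miR5225 entry.

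The 7 related sequences had 5 different seeds. The offset alone did not set the seed, since mtr-miR5225a and gra-miR3267 had different seeds although the stretch began at base 6 in both. The seed CGCAGGA was shared by ppe-miR3627-5p, stu-miR3627-5p and mtr-miR5225b, which are of 2 families. The other 4 sequences had a seed of their own, among them mtr-miR5225a and ptc-miR3627b, whose family numbers also stand in that group. The 3p entries had 2 further seeds, and none of the 7 seeds stood at bases 2 to 8 of a listed sequence of another family. Other places in those sequences were not searched for them.

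**Figure D2:**
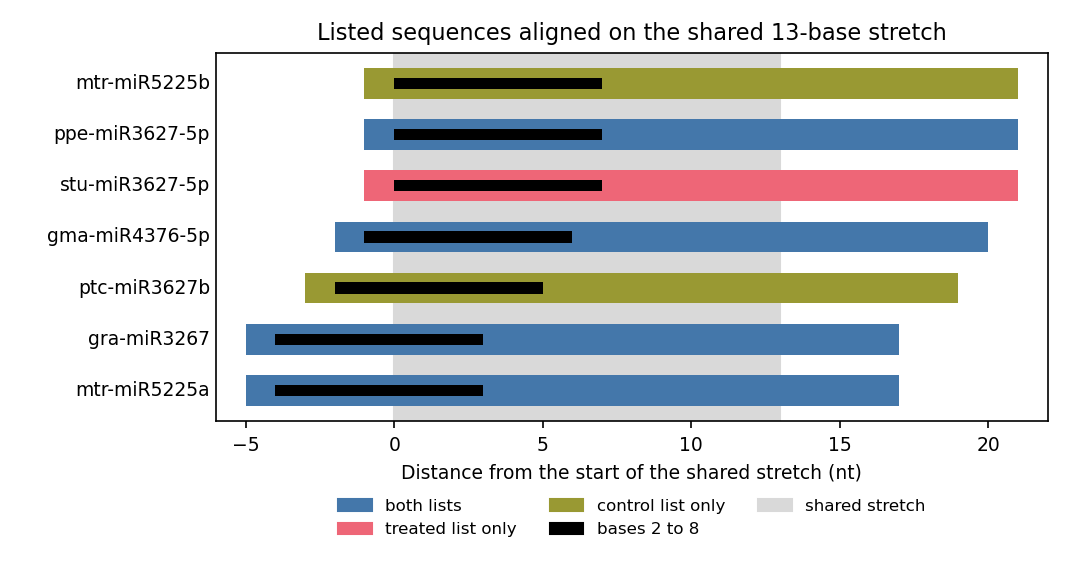
Extent of the 7 sequences that share the 13-base stretch, drawn along the distance from its start in nt, with the stretch shaded in grey and bases 2 to 8 as black bars. Colours give the list, and the stretch starts at base 2, 3, 4 or 6 of the listed sequence, so the black bars cover different parts of it.

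The sequences of miR3627, miR5225 and miR3267 with the stretch were aligned on it and compared over their overlap with ppe-miR3627-5p. This overlap was 22 bases for stu-miR3627-5p and mtr-miR5225b, 20 for ptc-miR3627b, and 18 for mtr-miR5225a and gra-miR3267. The stretch was picked as nearly alike in them, and it starts at base 2 of that reference. Differences inside or before it were therefore few by construction, and the place of the differences is not a result. Substitutions are given against ppe-miR3627-5p, which was in both lists, with positions counted from 1 at its 5′ end. The difference G15A, at the first base after the stretch, was present in mtr-miR5225a and mtr-miR5225b. It was absent from ptc-miR3627b, stu-miR3627-5p and gra-miR3267, so this base separated the listed miR5225 sequences from the compared miR3627 and miR3267 sequences. gma-miR4376-5p was not part of this comparison, so the base is not shown to be particular to miR5225. At the next variable place, A17G was present in ptc-miR3627b, and A17U in gra-miR3267. The potato entry of the treated list differed from the peach entry only at its 3′ end, by G20U, U21A and C22G. Over its 18 compared bases, gra-miR3267 differed from the peach entry inside the stretch by A8G and after it by A17U and C18G.

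The 2 sequences of miR5225 differed in this offset. They had an edit distance, which counts substitutions, insertions and deletions over the whole length, of 8. In a register shifted by 4 bases they overlapped by 18 bases without a mismatch. By edit distance mtr-miR5225b was closer to ppe-miR3627-5p, at 3, and mtr-miR5225a to gra-miR3267, at 5. In a register shifted by 4 bases mtr-miR5225a also differed from ppe-miR3627-5p and from stu-miR3627-5p by 1 mismatch over 18 bases.

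Over the 21 pairs of the 7 sequences, edit distances ran from 3 to 11 with a median of 6. The 4 pairs with the same family number had distances of 3 to 8 and a median of 5.5, and the 17 pairs with different numbers had distances of 3 to 11 and a median of 6, so the ranges overlapped. Counted as mismatches in the best overlap of at least 18 bases, the distances were 0 to 3 (median 2) with the same number and 1 to 6 (median 3) with different numbers. Pairs share sequences and are not independent, so no test was made.

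When entries within 5 edits of each other were chained together, the 9 entries fell into 4 groups. One held the 5 sequences in which the stretch starts at base 2, 3 or 4, from miR3627, miR4376 and miR5225. Another held mtr-miR5225a and gra-miR3267, in which it starts at base 6. Each 3p sequence stood alone. At a limit of 3 edits, ppe-miR3627-5p, stu-miR3627-5p and mtr-miR5225b formed a group and the other 6 stood alone, and at 6 all 7 sequences with the stretch were in 1 group.

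**Figure D3:**
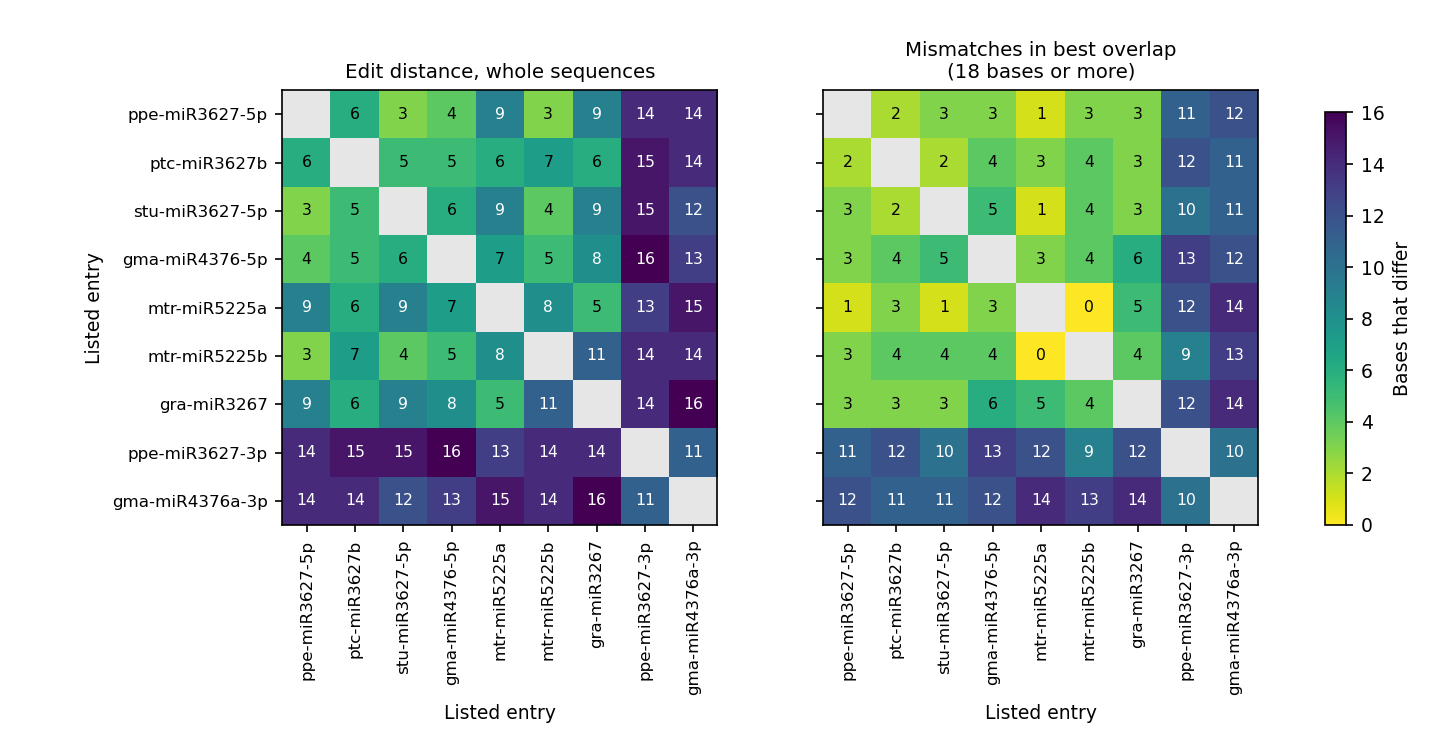
Bases that differ between each pair of the 9 entries, as edit distance over whole sequences (left) and as mismatches in the best overlap of at least 18 bases without gaps (right), with the same colour scale. The 7 sequences with the shared stretch lie at 3 to 11 edits of each other on the left and at 0 to 6 mismatches on the right, and the 3p sequences lie at 12 to 16 edits and 9 to 14 mismatches from them.

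The name miR3267 has the digits of miR3627 in another order, and whether the listed number is as intended is unknown. By edit distance gra-miR3267 lay nearest to mtr-miR5225a, at 5. It lay 6 edits from ptc-miR3627b and 9 from ppe-miR3627-5p and stu-miR3627-5p, and its nearest sequence outside the 4 families, of miR159, was also at 9. By overlap without gaps its fewest mismatches were to miR3627. It overlapped ptc-miR3627b by 20 bases and both 5p entries of miR3627 by 18 bases, with 3 mismatches each. The overlap with mtr-miR5225a was complete at 22 bases, with 5 mismatches. Without gra-miR3267, 3 member sequences were in both lists.

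Both 3p entries were in the control list only, and each held a near match to the stretch on the opposite strand. In the lines that follow, the capitals mark the bases whose reverse complement was compared with the stretch.
ppe-miR3627-3p: ugguguCAUCCCUCCUGUGacc
gma-miR4376a-3p: agcauCAUAUCUCCUGCAuag
In each, 11 of the 13 bases matched after reverse complementing, with N counted as a match. RNAduplex, which predicts the pairing of 2 strands, paired ppe-miR3627-3p with ppe-miR3627-5p over 18 base pairs (predicted energy -30.2 kcal/mol), leaving 3 bases at the 3′ end of the 5p strand, and 1 base at the 5′ end and 2 bases at the 3′ end of the 3p strand, unpaired. For gma-miR4376a-3p with gma-miR4376-5p it gave 15 base pairs (-23.4 kcal/mol), although these names do not state that they belong to the same precursor. The control list held a 5p and a 3p entry for peach miR3627 and for soybean miR4376, and the treated list held the 5p entries alone. Among names of other families, those ending in 3p were 31 of 102 in the treated list and 46 of 147 in the control list. These are shares within each list. How many 3p names of the control list were missing from the treated list was not counted, nor which of them are guide strands. Over all listed sequences, 52 of the 102 in the control list were in that list only.

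Among the 5 entries in a single list, distance to the other list varied. stu-miR3627-5p of the treated list lay 3 edits from ppe-miR3627-5p in the control list. mtr-miR5225b of the control list lay 3 edits from ppe-miR3627-5p in the treated list, and it was also the entry with 18 bases identical to mtr-miR5225a there. ptc-miR3627b lay 5 edits from gma-miR4376-5p and stu-miR3627-5p. For the 3p strands the distances were 13 edits for ppe-miR3627-3p and 12 for gma-miR4376a-3p. The treated list held no 3p entry of these families, so both were compared only with sequences that hold the stretch. Large distances were therefore given in advance and do not bear on whether the 3p strands had a counterpart. Each 3p strand lay nearer to a listed sequence of another family, at 8 edits, than to any member, at 11. With a counterpart allowed within 3 edits, 6 of the 9 sequences were thus represented in both lists, and within 5 edits 7 were.

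The sequences of these families were mostly of 22 nt. In the treated list 5 of 5 were of 22 nt, against 24 of 65 sequences of other families (36.9%). In the control list 7 of 8 were of 22 nt, against 29 of 94 (30.9%), and the exception was gma-miR4376a-3p with 21 nt. The same entry was the only one that did not begin with U. A first U was present in 5 of 5 treated sequences, against 42 of 65 of other families, and in 7 of 8 control sequences, against 57 of 94. The GC content of the 9 sequences ran from 42.9% in gma-miR4376a-3p to 63.6% in gra-miR3267, with a median of 54.5%, against a median of 52.4% and a range of 22.7% to 85.7% over the 113 others. These features describe listed entries and not reads, and the lists share sequences, so no test was made.

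Outside the 4 families, no listed sequence came within 6 edits of a member. The smallest distance was 7, between ptc-miR3627b and entries of miR399 and miR3711, and the other members lay at 8 or 9 edits from the nearest outside sequence. By edit distance miR390 was the nearest outside family for mtr-miR5225a alone, at 8. The others with the stretch lay nearest to miR159, miR399, miR535, miR3711 or miR6260. Overlaps of at least 18 bases without gaps were also compared, a measure chosen after seeing the data. By that measure miR390 was the nearest, alone or tied, for 6 of the 7 sequences with the stretch, and miR399 for gra-miR3267. The mismatches to miR390 were 5 for ppe-miR3627-5p, stu-miR3627-5p and mtr-miR5225b, and 6 for mtr-miR5225a. They were 7 for gma-miR4376-5p and for ptc-miR3627b, where miR399 was tied. miR390 was the family listed among 5 chosen as relatives (miR390, miR391, miR173, miR1509 and miR7122), with 2 distinct sequences, and it was in the control list and not in the treated list. In the lines that follow, the capitals mark the window compared with the stretch, and the second sequence also stood under the names bna-miR390a and zma-miR390b-5p.
stu-miR390-5p: aagCUCAGGAGGGAUAgcacc
aly-miR390b-5p: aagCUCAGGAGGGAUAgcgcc
Each matched 10 of the 13 bases. stu-miR390-5p differed from ppe-miR3627-5p, stu-miR3627-5p and mtr-miR5225b by 5 mismatches over 19 bases, and aly-miR390b-5p differed from the same 3 sequences by 6. The match to the stretch alone did not set miR390 apart, since bdi-miR7733-3p had 2 mismatches to it, and cme-miR399e and the reverse complement of ata-miR408-3p had 3, as had both miR390 sequences.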

How the data were processed

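Small RNA libraries from total RNA of mature leaf were prepared with a NEBNext kit for single-end sequencing, per the labels' protocols. cutadapt, an adapter trimmer, is named in the submitters' processing notes. For the mapper, miRNA collection, mismatch limit and filters, details were not given in the sources used here. Deposited lists hold names and mature sequences without a unit of abundance, and the code in the name of each list, which stands in a sample title, tied it to a library. The deposited table of predicted loci holds read counts, not normalized, and was searched only for member names. Samples were grouped from their titles.

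Carriage returns and tabs were stripped and sequences compared exactly, by edit distance, and without gaps at shifts of up to 4 bases with an overlap of at least 18. Distances were tested on simulated data. Duplexes were predicted with RNAduplex 2.7.2. Python 3.11.15, numpy 2.4.6 and matplotlib 3.10.9 were used. With 1 library per group, treated and control were compared by description. Every member is named, the sequence of gma-miR4376-5p is not reported here, and outside the families the nearest sequences and the related families. The sequence entries closest to the shared stretch were named after their values were seen. Members and lists were chosen with earlier results of these data known. Other edit limits, name matching, seeds and reverse complements were tried as alternatives.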

Additional observations from a re-analysis of the deposited data

How the results depend on the processing

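The number of member sequences in both lists was 4 by exact identity, 4 within 1 edit, 6 within 3 edits and 7 within 5 edits. It was 6 by identical bases 2 to 8, 5 by identity over an overlap of at least 18 bases and 3 without miR3267. Names in both lists numbered 4 in full, by family number and without the species prefix. Entries and distinct sequences gave the same counts, 5 in the treated list and 8 in the control list. The median distance over the 21 pairs was 6 edits, 7 without gaps and with overhangs counted, and 3 mismatches when overhangs were not counted. The entries formed 4 groups at 5 edits, 7 at 3 edits and 3 at 6 edits. The smallest distance to another family was 7 edits, also with reverse complements, and 5 mismatches in an overlap of at least 18 bases. The alternatives changed the match allowed, the distance measure, the unit counted or the families included, and no further cause was tested. The overlap comparisons were chosen after seeing the data. Leaving out a replicate was not run, since each group has 1 library. No paired analysis was possible because treated and control have 1 library each. With no depth known for either list, a missing entry does not show that the miRNA was absent.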
